A study of Mus musculus with 18 samples.

Results

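The comparison described here is the early transcript response of wild-type mouse embryonic stem (ES) cells to all-trans retinoic acid (RA), the active derivative of vitamin A. It rests on the arrays titled wild type, 8 h and with leukemia inhibitory factor (LIF): 3 from cells given 100 nM RA and 3 from cells given the control treatment, 6 of the 18 arrays in the series. All 6 samples are the AB1 ES cell line and carry no genetic change. They are labelled as cultured with LIF, the cytokine that holds mouse ES cells in the undifferentiated state. The other arrays hold cells of the same line with both copies of Cyp26a1 disrupted, later wild-type samples after 72 h of 100 nM RA with LIF (2 arrays), and a control array of each genotype labelled as kept without LIF. Total RNA of each sample was measured on a single-colour Affymetrix array. Whether the repeats of a treatment came from separate cultures is not stated, so p-values reflect only how far these arrays spread, possibly for technical reasons. AB1 is a single cell line, so the values describe that line.

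RA enters the nucleus bound to small carrier proteins and binds the RA receptors, which sit on DNA as dimers with the retinoid X receptors and exchange corepressors for coactivators when RA is bound. Direct targets include genes that limit RA itself, such as the hydroxylase Cyp26a1 and the retinal reductase Dhrs3, and homeobox genes that set position along the body axis. In ES cells RA drives exit from pluripotency, and LIF opposes that exit through the transcription factor STAT3.

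The best-known DNA element of the receptors is the DR5, a direct repeat of a hexamer with 5 bases between its copies. It was searched on both strands of the 250 bases before each gene's start, using RefSeq promoters of the mouse assembly GRCm38.p6. The hexamer was searched as RGKTCA, where R is A or G and K is G or T. The 3 promoters shown belong to genes that the results turn on. In the first and second lines capitals mark the 17 bases of the DR5, and in the Stra8 line they mark AGGTCA, a single form of that hexamer. The promoter of Cyp26a1 lies at chr19:37697558-37697807 on the plus strand, that of Rarb at chr14:16575477-16575726 on the minus strand, and that of Stra8 at chr6:34920698-34920947 on the plus strand.

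Cyp26a1: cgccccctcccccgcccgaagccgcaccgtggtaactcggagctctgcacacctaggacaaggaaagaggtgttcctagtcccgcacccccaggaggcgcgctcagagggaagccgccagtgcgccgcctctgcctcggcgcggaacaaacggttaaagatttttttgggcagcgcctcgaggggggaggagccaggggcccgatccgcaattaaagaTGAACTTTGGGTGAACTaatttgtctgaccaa
Rarb: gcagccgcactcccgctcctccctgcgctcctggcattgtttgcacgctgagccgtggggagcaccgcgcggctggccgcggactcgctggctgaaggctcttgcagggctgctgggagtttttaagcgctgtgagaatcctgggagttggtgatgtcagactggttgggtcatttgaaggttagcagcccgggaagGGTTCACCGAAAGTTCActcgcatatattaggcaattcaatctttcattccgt
Stra8: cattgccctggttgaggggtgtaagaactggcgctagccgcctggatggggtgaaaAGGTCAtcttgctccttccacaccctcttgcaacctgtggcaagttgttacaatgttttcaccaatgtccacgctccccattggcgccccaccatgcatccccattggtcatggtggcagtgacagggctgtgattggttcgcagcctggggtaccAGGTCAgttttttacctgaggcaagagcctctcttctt

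The DR5 of Cyp26a1 lay 16 to 32 bases before the start and reads AGTTCACCCAAAGTTCA on the opposite strand. That of Rarb lay 37 to 53 bases before the start on the gene's own strand. The Stra8 promoter held 2 copies of AGGTCA on its own strand, 33 to 38 and 189 to 194 bases before the start, and no DR5 in this window. A DR5 was found in 29 of all 32851 RefSeq promoters (0.0883%), and in 4 of the 9273 that belong to genes tested (0.0431%). Cyp26a1 and Rarb were the 2 of 72 genes called higher with a RefSeq promoter that held one (2.78%), and 0 of the 10 called lower did. A DR2, with 2 bases between the hexamers, was in 0 of the 72 and 0 of the 10, and in 57 of all promoters (0.174%). The bare form AGGTCA, which is in neither DR5 shown, was in 17 of the 72 (23.6%), 2 of the 10 (20.0%) and 1199 of the 9273 (12.9%). Such matches describe letters and are not shown to be sites.

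Before the results, the arrays were checked against their labels. The 6 markers that define ES cells (Pou5f1, Sox2, Nanog, Zfp42, Dppa5a and Tdgf1) were at 5205 units or more on every array, with summed signals of 89845 to 102996 units in controls and 95453 to 100346 with RA. Of 12 fibroblast feeder markers only 2, Thy1 (170 to 717 units) and Col5a1 (176 to 251 units), reached 100 units on each array. The summed signal of the 12 was 944 to 1168 units in controls and 801 to 936 with RA. Col1a1 (2.81 to 37.4 units), Col3a1, Postn, Dcn, S100a4 and Prrx1 stayed under the floor of 50 units on all 6 arrays. Col1a2 (51.3 to 98.0 units) and Twist1 (59.2 to 85.8 units) stayed above that floor on all 6. Summed extraembryonic endoderm markers differed more by replicate than by treatment: 6101 units in control replicate 1 and 7864 in RA replicate 1, against 11551 to 13558 on the other 4 arrays. The part of these markers in the results was not tested.

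The LIF label of control replicate 1 was not borne out by the signal. Socs3, the STAT3-induced inhibitor of LIF signalling, read 367 units on that array against 4484 and 3792 on the other control arrays and 3102, 3250 and 3527 with RA. The wild-type array labelled as kept without LIF read 3800 units. Bcl3, another STAT3 target, read 141 units on control replicate 1, 914 and 980 on the other controls and 1200 on the array labelled without LIF. The knockout arrays read likewise. Socs3 was at 215 units on knockout control replicate 1, 6001 and 5722 on the other knockout controls and 4551 on the array labelled without LIF. For Bcl3 these values were 215, 971, 1127 and 1197 units. The labels are used as given. Wild-type calls that are lost when the LIF labels of replicate 1 are exchanged in both genotypes are marked, but not every call gained.

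After 8 h of RA, 103 of 11388 genes tested (0.904%) passed the threshold of an adjusted p under 0.05. Of these, 90 were higher (0.79%) and 13 lower (0.114%). "Rose", "fell" and "called" are used of these genes alone, with limma's Benjamini-Hochberg adjusted p over all genes tested. In samples of many cells, a shift in how many cells express a gene and a shift in RNA per cell cannot be told apart. All 3 RA arrays lay above all 3 controls for each of the 90, and below for each of the 13. Over all genes tested 6.13% lay wholly above and 4.11% wholly below. Differences are given on the log2 scale with their standard error, after values under 50 units were set to 50. A difference against controls that all lay at this floor is written with "at least", which applies to 5 of the genes that rose.

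Among the 90, 8 rose 4-fold or more, 44 between 2-fold and 4-fold and 38 less than 2-fold, from 1.35-fold to 18.6-fold. The 13 falls ran from 1.68-fold to 3.85-fold, with 8 of 2-fold or more. The median log2 difference was 1.15 for the genes that rose, -1.11 for those that fell and 0.0034 over all genes tested. Of the genes that rose, 24 had a control mean under 100 units, near background, and 23 one of 1000 or more. None of the genes that fell had a control mean under 100 units, and 6 had one of 1000 or more. For 25 of the 90 the lowest RA array was at least 2 times the highest control array. The 3 pairs of equal replicate number gave like sizes, with median folds of 2.17, 2.25 and 2.11 for the genes that rose and 0.448, 0.485 and 0.426 for those that fell. These genes were called from the same arrays, so the likeness follows in part from how they were selected.

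**Figure D1:**
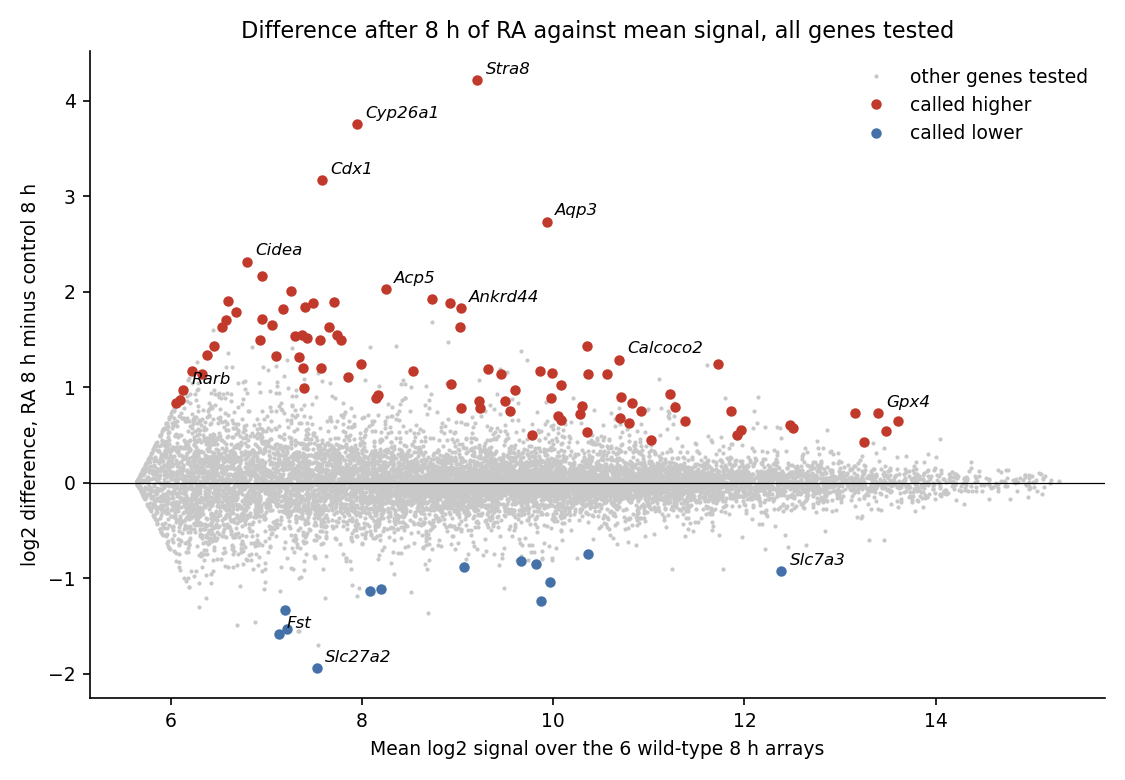
Each of the 11388 genes tested is a point, with its mean log2 signal over the 6 wild-type 8 h arrays on the horizontal axis and its log2 difference, RA minus control, on the vertical axis. The 90 genes called higher (red) reach 4.22, the 13 called lower (blue) reach -1.95, and the edges on the left come from the floor of 50 units.

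The number of calls depended on the fit, and the 103 come from a fit that does not pair arrays by replicate number. With the replicate number as a block, 275 genes were called (2.41%), 211 higher (1.85%) and 64 lower (0.562%), and the 103 were all among them. With the LIF labels of replicate 1 exchanged the count was 160 (128 higher and 32 lower), and 94 of the 103 were still called. Leaving out control replicate 1 gave 73, of which 64 were among the 103. Leaving out RA replicate 1 gave 67 and RA replicate 3 gave 58. A fit of the 6 arrays alone, with 4 residual degrees of freedom, called 13, all higher. Under each of the 19 alternative settings run, 11 genes were still called: Stra8, Cyp26a1, Cdx1, Cidea, Acp5, Tle6, Adgra2, Tmem191c, Afap1l1, Ankrd44 and Ptpmt1.

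Within the retinoid pathway, Cyp26a1, Dhrs3, Rarb and the coregulators Nrip1 and Tle6 rose. Cyp26a1 (chromosome 19), the cytochrome P450 that oxidises RA, read 17.5, 84.2 and 71.9 units on the control arrays and 637, 1695 and 691 units with RA. Every RA array was far above every control, and RA replicate 2 was the highest. The log2 difference was 3.76 ± 0.29 (adjusted p = 4.69e-06), or 13.5-fold, where the floor makes the low control count as 50 units. The same-numbered pairs gave at least 12.7-fold, 20.1-fold and 9.61-fold. The other tested hydroxylase, Cyp26b1, read 12.7, 12.4 and 11.4 units in controls and 14.5, 11.4 and 60.8 with RA, at or near the floor on all 6 arrays, and 465 and 557 after 72 h.

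Dhrs3, which reduces retinal to retinol and so lowers the supply for RA synthesis, read 13.7, 68.2 and 30.8 units in controls and 143, 238 and 206 units with RA. The groups did not overlap, and the rise was 1.79 ± 0.24 (adjusted p = 0.00161). It was the only called gene of 8 retinol and retinal enzymes, whose differences ran from -0.25 to 1.79. Among 7 tested genes of retinoid binding, uptake and storage none was called. The membrane transporter Stra6 had a difference of 0.37 ± 0.33 (adjusted p = 0.956) and the RA carrier Fabp5 one of -0.15 ± 0.17 (adjusted p = 0.987).

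Of the 6 retinoid receptor genes, Rarb alone was called. Its control arrays read 28.4, 6.11 and 4.46 units, all under the floor, and its RA arrays 102, 76.8 and 119 units. All 3 RA arrays were above the controls but close to the detection range, and the rise was at least 0.97 ± 0.19 (adjusted p = 0.0197). With a floor of 100 units Rarb was not called (0.10, adjusted p = 0.994). Rarg had a difference of 0.33 ± 0.22 (adjusted p = 0.860), and Rara one of 0.52 ± 0.33 (adjusted p = 0.848).

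Among 14 nuclear receptor coregulators, 2 rose and none fell, and the list's median was -0.04. Nrip1, a corepressor that binds liganded nuclear receptors, read 235, 233 and 293 units in controls and 750, 1029 and 1042 with RA. The controls were close together and all RA arrays stood above 700 units, with a rise of 1.88 ± 0.17 (adjusted p = 1.91e-05). The mean over its probe sets gave Nrip1 1.06 (adjusted p = 0.15). Here and below, that mean takes every probe set of a gene, also those too dim to be tested. The other tested probe sets of Nrip1 gave 1.48 ± 0.75, 1.41 ± 0.33 and 1.48 ± 0.66. Tle6, a Groucho-related corepressor, read 176, 167 and 353 units in controls and 902, 743 and 839 with RA. Control replicate 3 was the highest control, still under the lowest RA array, and the rise was 1.92 ± 0.22 (adjusted p = 0.00045).

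A list of 20 tested genes commonly given as RA-induced had 9 that rose (45.0%, against 0.79% of all genes) and none that fell, with a median of 0.82. The 9 were Cyp26a1, Rarb, Stra8, Dhrs3, Nrip1, Cdx1, Hoxb4, Aqp3 and Ltbp3. All 20 had a difference above 0, or 19 with the LIF labels exchanged and 16 with a floor of 100 units, where the other 4 were at 0. With the block Gata6 was called as well. The list was chosen with earlier results of these data known and is not independent evidence of its direction.

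The largest rise was that of Stra8 (chromosome 6), a gene that RA induces in premeiotic germ cells and that is required for meiosis. It read 184, 161 and 87.3 units in controls and 2516, 3549 and 1861 units with RA. No RA array was under 10 times the highest control, and the rise was 4.22 ± 0.27 (adjusted p = 6.80e-07), or 18.6-fold. Of 11 germ cell and meiosis genes, Kit, the receptor for stem cell factor, was the other that rose. Its controls read 315, 498 and 483 units and its RA arrays 1241, 976 and 744, for a rise of 1.19 ± 0.22 (adjusted p = 0.0138). Dmrt1, a regulator of germ cell fate, had a difference of 1.08 ± 0.36 (adjusted p = 0.296), and was called with the block (adjusted p = 0.0103). Of the 11 genes, 3 were called higher with the LIF labels exchanged.

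Cdx1, a caudal-type transcription factor gene active in posterior tissues and gut, read 42.2, 38.5 and 105 units in controls and 639, 337 and 880 with RA. Controls 1 and 2 were under the floor, and the RA arrays were all far above control 3. The rise of Cdx1 was 3.17 ± 0.40 (adjusted p = 0.000942). Of the 7 tested Cdx genes and Hox cofactors, no other was called, and with the block Pbx2, a cofactor that binds DNA with Hox proteins, was added (0.64, adjusted p = 0.0404).

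Of the Hox genes tested, 1 was called. Hoxb4, a homeobox gene of hindbrain and trunk, read 20.3, 61.3 and 22.1 units in controls and 116, 206 and 125 with RA, a rise of 1.43 ± 0.23 (adjusted p = 0.00646). A second probe set of Hoxb4 gave 0.31 ± 0.24 (unadjusted p = 0.209), and with a floor of 100 units the difference was 0.53 (adjusted p = 0.406). Hoxb4 was the only call among 8 tested HoxB genes (median 0.08). None of 7 HoxA genes was called, with differences from -0.19 to 0.37, and none of 4 genes of the HoxC and HoxD clusters.

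**Figure D2:**
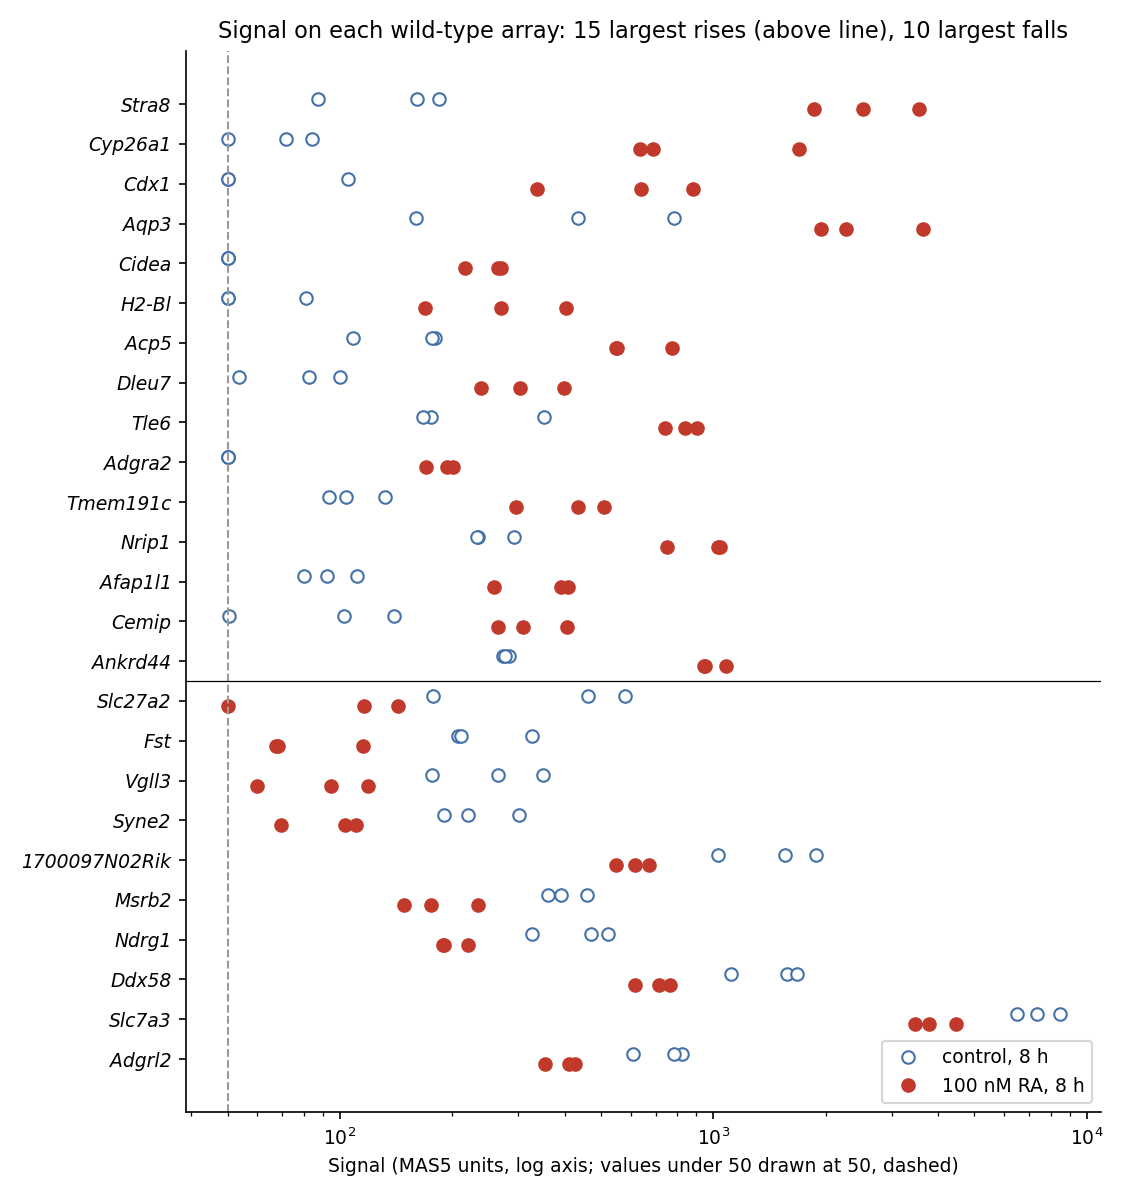
Points give the MAS5 signal (log axis) of each wild-type 8 h array for the called genes that rose most (15) and fell most (10), open for control and filled for RA. Groups do not overlap for any gene shown, and for Cidea and Adgra2 all 3 controls lie at or under the floor of 50 units (dashed line), where points coincide.

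The other large rises came from genes of varied function. Aqp3, a channel for water and glycerol, read 160, 434 and 782 units in controls and 1943, 2272 and 3645 with RA. Both groups spread widely and in the same order of replicates, so the rise of 2.74 ± 0.61 had an adjusted p of 0.0491, and of 0.000118 with the block. Without any 1 of the other arrays than control replicate 3, Aqp3 was not called (adjusted p from 0.105 to 0.220). Cidea, a protein of lipid droplets, read 46.7, 10.6 and 42.4 units in controls and 265, 216 and 270 with RA, a rise of at least 2.32 ± 0.18 (adjusted p = 4.69e-06). H2-Bl, a class I histocompatibility gene, read 32.3, 81.2 and 39.1 units in controls and 270, 403 and 169 with RA (2.17 ± 0.32, adjusted p = 0.00281). Class I genes are alike in sequence, so signal from a relative cannot be told apart on this probe set. H2-Bl was the only one of 9 antigen presentation genes that was called.

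Acp5, the tartrate-resistant acid phosphatase of bone-resorbing cells, read 180, 108 and 177 units in controls and 552, 776 and 547 with RA, a rise of 2.03 ± 0.23. Dleu7, a gene of a region deleted in leukemia, read 82.5, 100 and 53.6 units in controls and 398, 303 and 239 with RA (2.01 ± 0.25). Adgra2, an adhesion G-protein receptor that aids Wnt7 signalling, read 30.6, 28.1 and 6.47 units in controls and 201, 170 and 194 with RA, a rise of at least 1.91 ± 0.17. In all 3 genes every RA array was clear of the controls, and the adjusted p ranged from 1.62e-05 for Adgra2 to 0.000799 for Dleu7.

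Tmem191c, a predicted membrane protein, read 104, 132 and 93.6 units in controls and 435, 509 and 297 with RA (1.89 ± 0.23). Afap1l1, an actin filament-associated adaptor, read 111, 92.6 and 80.0 units in controls and 390, 259 and 407 with RA (1.88 ± 0.20). Cemip, which takes part in the breakdown of hyaluronan, read 50.3, 140 and 103 units in controls and 309, 264 and 405 with RA (1.84 ± 0.33). Of these, Cemip had the least even controls and the largest adjusted p, 0.0112. Ankrd44, an ankyrin-repeat subunit of a protein phosphatase, had the smallest standard error of the 15 largest rises, with 284, 274 and 278 units in controls and 950, 946 and 1084 with RA. Its rise of 1.83 ± 0.12 shared the smallest adjusted p, 6.80e-07, with Stra8. With the mean over probe sets in place of the brightest, the difference of Ankrd44 was 0.48 (adjusted p = 0.0167).

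Falls were fewer and none reached 4-fold, but their median log2 difference of -1.11 was close in size to the 1.15 of the rises. Slc27a2, which transports and activates fatty acids, read 462, 580 and 178 units in controls and 116, 143 and 42.0 with RA. Replicate 3 was the lowest in both groups, each RA array was below every control, and the fall was -1.95 ± 0.42 (adjusted p = 0.0404). Fst, the activin-binding inhibitor follistatin, read 208, 211 and 326 units in controls and 68.2, 67.4 and 115 with RA, with -1.58 ± 0.29 (adjusted p = 0.0125). The same-numbered pairs of Fst gave 0.329, 0.320 and 0.354 of the control signal, an even fall.

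Vgll3, a cofactor of TEAD transcription factors, read 266, 350 and 176 units in controls and 119, 94.5 and 59.8 with RA (-1.53 ± 0.31, adjusted p = 0.0250). Syne2, a nesprin that links the nucleus to the cytoskeleton, read 190, 220 and 301 units in controls and 69.5, 103 and 111 with RA (-1.33 ± 0.25, adjusted p = 0.0139). The transcript 1700097N02Rik read 1028, 1885 and 1559 units in controls and 548, 673 and 619 with RA (-1.24 ± 0.21, adjusted p = 0.00755). In each of the 3 the groups stayed apart. With the mean over probe sets Vgll3 (-0.69, adjusted p = 0.434) and Syne2 (-0.36, adjusted p = 0.167) were not called.

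Msrb2, a mitochondrial reductase of oxidised methionine, read 459, 361 and 391.5 units in controls and 149, 175 and 235 with RA (-1.14 ± 0.21, adjusted p = 0.0125). Ndrg1, a gene induced by hypoxia and differentiation, read 523, 326 and 470 units in controls and 221, 190 and 189 with RA (-1.11 ± 0.22, adjusted p = 0.0208). Its 4 other probe sets were lower as well, from -0.65 to -1.65. Ddx58, the cytosolic viral RNA sensor RIG-I, read 1112, 1574 and 1677 units in controls and 616, 767 and 715 with RA (-1.04 ± 0.22, adjusted p = 0.0371).

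Slc7a3, a transporter of cationic amino acids, had the highest signal of the genes that fell, with 8453, 7376 and 6490 units in controls and 4467, 3460 and 3790 with RA (-0.93 ± 0.13, adjusted p = 0.00246). Every RA array of Slc7a3 was below every control. Adgrl2, an adhesion receptor of the latrophilin family, read 822, 785 and 608 units in controls and 354, 426 and 410 with RA (-0.89 ± 0.19, adjusted p = 0.0384, and 0.0624 with the LIF labels exchanged). The smallest falls were those of Hmga2, a chromatin protein of embryonic cells (-0.85 ± 0.15), Bnc2, a zinc finger protein (-0.82 ± 0.18), and Ell2, an elongation factor of RNA polymerase II (-0.75 ± 0.14). With the LIF labels exchanged these 3 were not called, with adjusted p of 0.111, 0.654 and 0.0752.

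Of 27 pluripotency genes tested, Dppa2, a chromatin regulator of pluripotent cells, was the only call and it rose, from 7846, 8410 and 5438 units in controls to 12303, 12495 and 10610 with RA (0.73 ± 0.15, adjusted p = 0.0330). The list's median was 0.06 and 17 of 27 were above 0, but with the LIF labels exchanged the median was -0.08 and 10 of 27 were above 0. That exchange gave 1 gene called higher and 1 called lower. Sox2 had a difference of -0.37 ± 0.12 (adjusted p = 0.280) and Nanog one of 0.30 ± 0.20 (adjusted p = 0.874). With the block, Dnmt3l, the cofactor of the de novo DNA methyltransferases, was called lower (-0.66, adjusted p = 0.0307). No gene of the 14 for DNA methylation and Polycomb was called with the labels as given and no block. With the LIF labels exchanged 1 was called lower. Dnmt3b had a difference of -0.43 ± 0.27.

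Of 14 genes of LIF signalling and STAT3, 10 had a difference above 0, but 4 with the LIF labels exchanged. The kinase gene Pim1 rose, from 635, 746 and 507 units in controls to 1487, 1433 and 1281 with RA (1.17 ± 0.19, adjusted p = 0.00646). The control replicate that read low in Socs3 lay between the others in Pim1. Socs3 itself had a difference of 0.84 ± 1.02 (adjusted p = 0.993), and -0.29 ± 0.14 (adjusted p = 0.644) with the LIF labels exchanged. For Bcl3 these values were 1.38 ± 0.63 (adjusted p = 0.607) and 0.35 (adjusted p = 0.493). The LIF receptor gene Lifr had -0.62 ± 0.19 (adjusted p = 0.209) and was called lower with the block (adjusted p = 0.0130).

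Markers of differentiated lineages gave no call at 8 h in any of the 4 lineage lists. Of 15 extraembryonic endoderm genes the largest differences were those of the transcription factors Gata6 (1.07 ± 0.33, adjusted p = 0.229) and Sox7 (0.91 ± 0.59, adjusted p = 0.863). Gata6 read 165, 220 and 369 units in controls and 306, 475 and 853 with RA. The groups overlapped, each RA array was above the control of its number, and with the block it was called (adjusted p = 0.0470). Summed endoderm markers also differed by replicate, as given with the array checks.

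Of 10 neural genes 8 had a difference below 0 (6 with the LIF labels exchanged), with a median of -0.28 against 0.0034 over all genes, and none was called. The largest were Otx2, a head homeobox gene (-1.30 ± 0.66, adjusted p = 0.709), and Pou3f1 (-0.81 ± 0.31, adjusted p = 0.426). Of 8 primitive streak and mesoderm genes, Prrx2, a homeobox gene of mesenchyme, had 1.68 ± 0.42 (adjusted p = 0.0873) and was called with the block (adjusted p = 0.0119). Evx1 had -0.63 ± 0.30. Of 11 trophoblast genes, Ascl2 had -0.81 ± 0.36 and Tfap2c 0.75 ± 0.47, neither called.

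**Figure D3:**
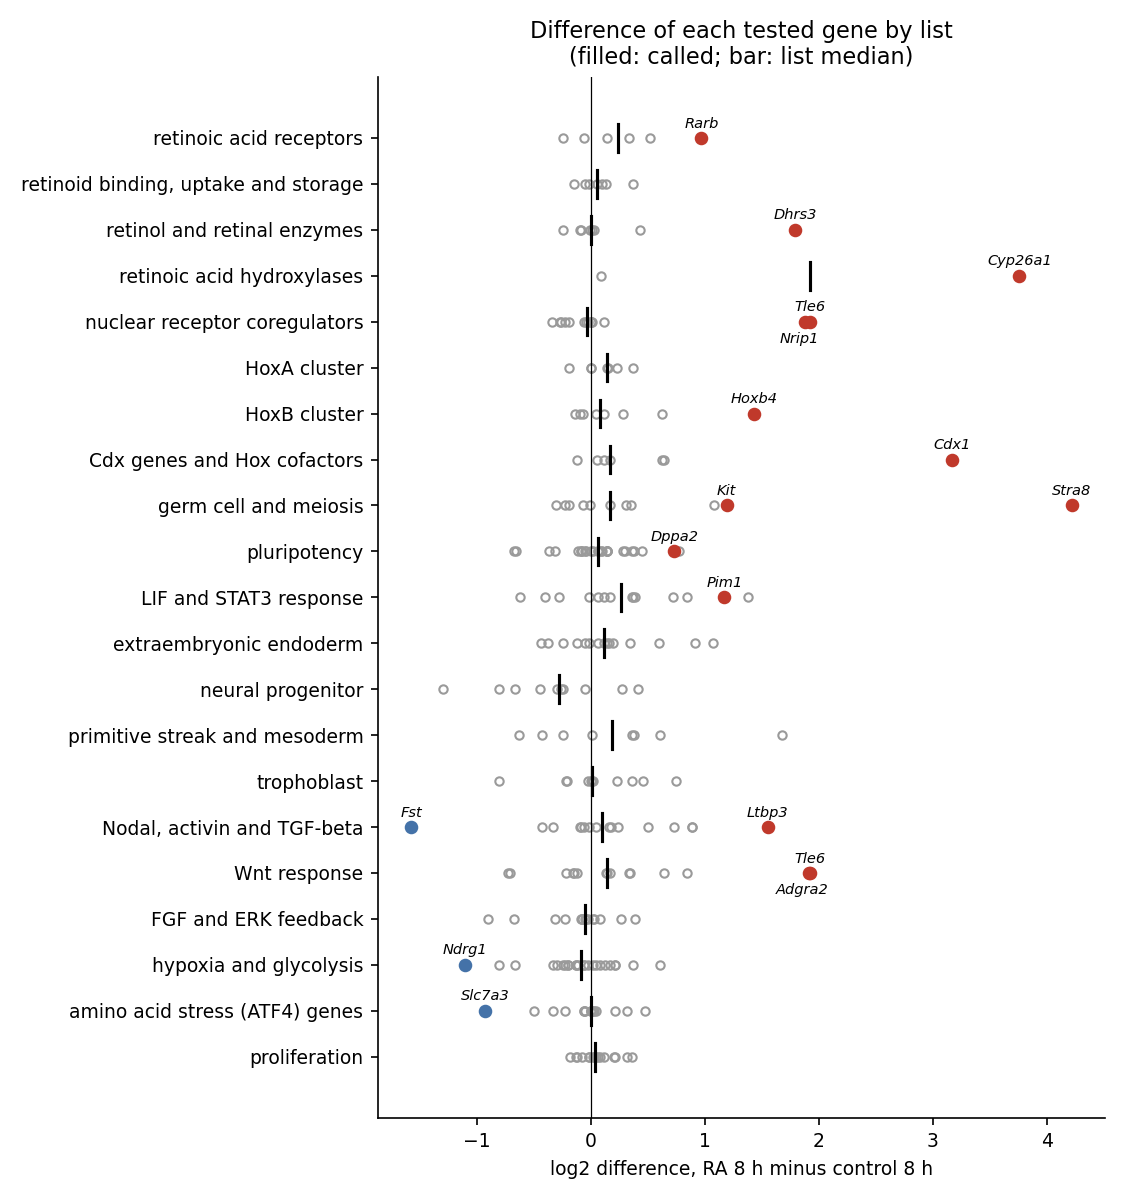
Each row is a gene list, each point a tested gene placed by its log2 difference, RA 8 h minus control, and each bar the list's median. Filled points are called genes (red higher, blue lower), which are single members in most rows, while the medians drawn run from -0.28 (neural) to 0.27 (LIF and STAT3, -0.13 with the LIF labels exchanged), except 1.93 for the 2 hydroxylase genes.

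Of 16 genes of Nodal, activin and TGF-beta signalling, Fst fell and Ltbp3, which anchors latent TGF-beta in the matrix, rose from 96.8, 166 and 122 units to 353, 384 and 362 (1.55 ± 0.28, adjusted p = 0.0112). With the block the Nodal antagonist Lefty1 (0.73, adjusted p = 0.0437) and the activin subunit gene Inhbb (0.89, adjusted p = 0.0285) were called higher. Of the 16 genes, 3 were called higher and 1 lower with the LIF labels exchanged. Of 15 Wnt genes Adgra2 and Tle6 rose. Of 13 BMP and Id genes none was called. Id2 had -1.37 ± 0.76, with control replicate 3 (160 units) and RA replicate 3 (69.0 units) far below the others. Smad6, an inhibitor of BMP signalling, had 1.36 ± 0.33 (adjusted p = 0.0803, and 0.0322 with the block). Of 15 FGF genes, Dusp4 (-0.90 ± 0.39) and the ETS repressor Etv6 (-0.68 ± 0.17, adjusted p = 0.0832, and 0.0433 with the block) had the largest differences. With the LIF labels exchanged 1 of these 15 genes was called lower.

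Growth and stress lists held few calls. None of 16 proliferation genes was called, with differences of -0.18 to 0.36, the largest for Ccnd3 (0.36 ± 0.26) and Cdk1 (0.32 ± 0.09, adjusted p = 0.175). Of 16 cell cycle inhibitors and p53 targets, Gadd45b, a growth arrest gene, rose from 497, 631 and 616 units to 997, 1054 and 871 (0.75 ± 0.17, adjusted p = 0.0470). Ndrg1 was the only call of 24 hypoxia and glycolysis genes, Slc7a3 of 16 genes of the amino acid stress response and Ddx58 of 7 interferon and RNA-sensing genes. Of 12 immediate early genes none was called. Junb had 0.72 ± 0.75 with the labels as given and -0.03 with the LIF labels exchanged. Of 14 lipid genes Cidea rose, Slc27a2 fell, and with the block Cpt1a, which admits fatty acids to mitochondria, was called higher (0.61, adjusted p = 0.0245).

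Across the 32 lists, 22 of 343 tested genes were called, against 0.904% of all genes tested, in lists chosen with earlier results known. No call was made in 14 lists, and 81 of the 103 called genes were in no list. Those not yet described are given here by what they are known to do, an order made after their values were seen. Transcription and chromatin genes that rose were Zmiz1, a coactivator that modifies proteins with SUMO (1.15 ± 0.19, with 0.13 and -0.04 on its other probe sets), Hic1, a zinc finger repressor (1.31 ± 0.29), Hivep3 (1.49 ± 0.22, with 0.14 on its other probe set), Nol4l (1.55 ± 0.22) and the histone demethylase gene Kdm3b (1.02 ± 0.20). Smaller rises were those of Nr6a1, the germ cell nuclear factor that silences Pou5f1 (0.72 ± 0.13), Aebp2, a Polycomb partner (0.79 ± 0.11), the methyltransferase Smyd4 (0.97 ± 0.19), Zfp809, which silences retroviruses in ES cells (0.80 ± 0.16), the corepressor Tle2 (0.86 ± 0.19) and Csrnp1 (0.66 ± 0.14). Foxo3, a transcription factor of stress and survival, rose by 0.79 ± 0.16 (adjusted p = 0.0262), or 0.251 as adjusted p with the LIF labels exchanged. Msx3, a homeobox gene of the dorsal neural tube, read 20.0, 10.3 and 32.2 units in controls and 124, 92.9 and 124 with RA, a rise of at least 1.17 ± 0.23 (adjusted p = 0.0183, and 0.246 with the LIF labels exchanged).

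Cell-surface genes made up a further set. Pdgfrb, a receptor for platelet-derived growth factor, rose from 57.6, 51.2 and 28.5 units to 159, 146 and 188 (1.63 ± 0.25), while its other probe set gave 0.00 ± 0.27. Nt5e, which makes adenosine outside the cell, rose by 1.63 ± 0.31 and Sema4g, a semaphorin, by 1.63 ± 0.31. Sorcs2, a sorting receptor, rose by 1.65 ± 0.32 and Tmtc1, an O-mannosyltransferase of the endoplasmic reticulum, by 1.82 ± 0.27. Dpp4, a peptidase of the cell surface, rose by 1.54 ± 0.27, and its other probe set gave no difference. The metabotropic glutamate receptor gene Grm2 (0.99 ± 0.21), Grasp, a scaffold of such receptors (1.24 ± 0.20), Tnfrsf13c, the receptor for the B-cell factor BAFF (1.14 ± 0.23), and the adhesion receptor Adgre5 (0.90 ± 0.17) also rose. With a floor of 100 units Tnfrsf13c was not called (0.25, adjusted p = 0.89). Grasp was bright, at 1637, 2581 and 2522 units in controls and 4495, 6371 and 4926 with RA.

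Among enzymes of mitochondria and metabolism, Ptpmt1, a phosphatase needed for cardiolipin synthesis, read 1031, 979 and 1058 units in controls and 2344, 2249 and 2161 with RA, with no overlap and a rise of 1.14 ± 0.14 (adjusted p = 0.00049). Gpx4, the peroxidase that protects membrane lipids, read 8928, 9324 and 7150 units in controls and 14103, 14928 and 12786 with RA (0.73 ± 0.10, adjusted p = 0.00161). Kyat3, a kynurenine aminotransferase, rose by 1.43 ± 0.24, Gys1, glycogen synthase of muscle type, by 1.13 ± 0.19, and the mitochondrial phosphatase Pptc7 by 0.84 ± 0.15. Mpc1, part of the mitochondrial pyruvate carrier, rose by 0.50 ± 0.09 and Alkbh7 by 0.53 ± 0.10. Gdpd5, a glycerophosphodiester phosphodiesterase (1.71 ± 0.28), and Galnt16, which starts O-linked glycans (1.33 ± 0.23), rose too, with adjusted p of 0.0639 and 0.0511 when the LIF labels were exchanged. Among enzymes of glycans and lysosomes were Man2a1 (0.86 ± 0.12), Pigk (0.79 ± 0.14), Glb1 (0.70 ± 0.11), Smpd4 (0.65 ± 0.12) and the fucosyltransferase Fut4, which had all controls at the floor and rose by at least 0.83 ± 0.18.

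Genes of membrane traffic and autophagy that rose included Calcoco2, an autophagy receptor, from 1066, 1329 and 834 units to 2296, 3430 and 2191 (1.29 ± 0.21), and Gabarapl2, an autophagosome protein (0.65 ± 0.12). Rab29 (1.04 ± 0.18), the endosomal kinesin Kif16b (0.92 ± 0.16), Agfg1 (0.55 ± 0.09) and the endosomal gene Wdr91 (1.11 ± 0.19) rose as well. Wdr91 had a probe set that went the other way (-1.07, unadjusted p = 0.0123), the only opposite difference with an unadjusted p under 0.05 among 86 other probe sets tested for 52 called genes. Of those 86, 57 had the same direction with an unadjusted p under 0.05.

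Transport genes that rose were Slc51a, a subunit of the steroid and bile acid transporter (1.20 ± 0.23), the calcium pump Atp2a2 (0.54 ± 0.08) and the lipid flippase Atp11b (0.75 ± 0.14). Genes of the cytoskeleton and its signals were Rhobtb1 (1.71 ± 0.28, with 0.35 on its other probe set), Map7, which binds microtubules (0.63 ± 0.13), Mylpf, a myosin light chain (0.57 ± 0.09), and Plcb3, a phospholipase (0.89 ± 0.16). With a floor of 100 units Rhobtb1 was not called (0.79, adjusted p = 0.313). Adaptors of ubiquitin ligases were Spsb1 (1.25 ± 0.26), Fbxo27 (1.17 ± 0.22), Kbtbd11 (0.75 ± 0.12) and Cul5 (0.50 ± 0.11). Others were Greb1l, a gene of kidney development (1.49 ± 0.23), the growth arrest and myelin gene Pmp22 (1.20 ± 0.22), Camk2n1, an inhibitor of CaM kinase (1.49 ± 0.26), Themis2 (1.51 ± 0.24), Dnajb13 (1.32 ± 0.29), the testis chaperone Clgn (0.86 ± 0.17), Ppdpf (0.92 ± 0.13), Nudt4 (0.61 ± 0.12), Ticrr, which helps start DNA replication (0.67 ± 0.13), and Cdv3 (0.43 ± 0.09).

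Just inside the threshold were AA414768 (adjusted p = 0.0471), Tle2 (0.0478), Avpi1 (0.0479), Aqp3 (0.0491) and Bnc2 (0.0493). Just outside were Oaz2 (0.62 ± 0.14, adjusted p = 0.0506), Sned1 (-1.20 ± 0.27, 0.0507), Cnst (0.63 ± 0.14, 0.0512), Thsd1 (-1.05 ± 0.24, 0.0515) and Epb41l1 (0.77 ± 0.17, 0.0517). The groups did not overlap in any of these 10 genes, and with the block the last 5 were called too (adjusted p from 0.00341 to 0.0250). With the LIF labels exchanged and no block, Oaz2 (adjusted p = 0.0125), Sned1 (0.0385), Cnst (0.0415) and Epb41l1 (0.0103) were called, and Thsd1 was not (0.374). Avpi1 was not called with the LIF labels exchanged (adjusted p = 0.0516). In a fit of every probe set by itself, 116 of 22757 were called (0.51%). Of the 2511 probe sets in that fit without a gene name here, 5 were higher and 1 lower.

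The 2 wild-type arrays after 72 h of RA show where the early genes stood later. That comparison uses the same 8 h RA arrays and has no 72 h control here, so RA and time in culture cannot be told apart, and values are set side by side. Over all genes 22.3% were called between 8 h and 72 h, 14.1% higher and 8.18% lower at 72 h. Pmp22 read 111, 115 and 105 units in controls, 194, 254 and 330 after 8 h and 5612 and 6810 after 72 h. It stood 4.61 ± 0.24 higher at 72 h than at 8 h (adjusted p = 3.66e-08). Greb1l went from 182 to 233 units at 8 h to 1354 and 1291 (2.68 ± 0.26), and Rarb to 566 and 514 units (2.46 ± 0.21). Adgra2 stood at 1005 and 916 units (2.35 ± 0.19), Stra8 at 9751 and 8289 (1.82 ± 0.30), Cyp26a1 at 3402 and 3211 (1.87 ± 0.32), and Calcoco2 at 7911 and 6149 (1.43 ± 0.23).

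Other early genes stood at their 8 h level or below it. Ankrd44 read 1209 and 1115 units at 72 h (0.23 ± 0.13, adjusted p = 0.242) and Tle6 885 and 758 (-0.01 ± 0.25, adjusted p = 0.983). Grm2 had 198, 275 and 246 units at 8 h and 29.6 and 41.4 at 72 h, under its controls of 132, 101 and 129. Msx3, called higher at 8 h, was at 9.69 and 53.7 units. Tmem191c stood at 218 and 205 units (-0.93 ± 0.26, adjusted p = 0.0175).

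Among the genes that fell, Hmga2 read 1289, 1157 and 1205 units in controls, 706, 666 and 648 after 8 h and 2915 and 3270 after 72 h. Fst (142 and 286 units), Vgll3 (228 and 234) and Syne2 (160.5 and 206) were above each of their 8 h RA arrays. Bnc2 went the other way, from 610, 586 and 640 units at 8 h to 96.9 and 120 at 72 h (-2.51 ± 0.21, adjusted p = 1.34e-06), and Slc7a3 stood at 1671 and 1915 units (-1.12 ± 0.15). At 72 h these genes thus stood above, near or below their controls.

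**Figure D4:**
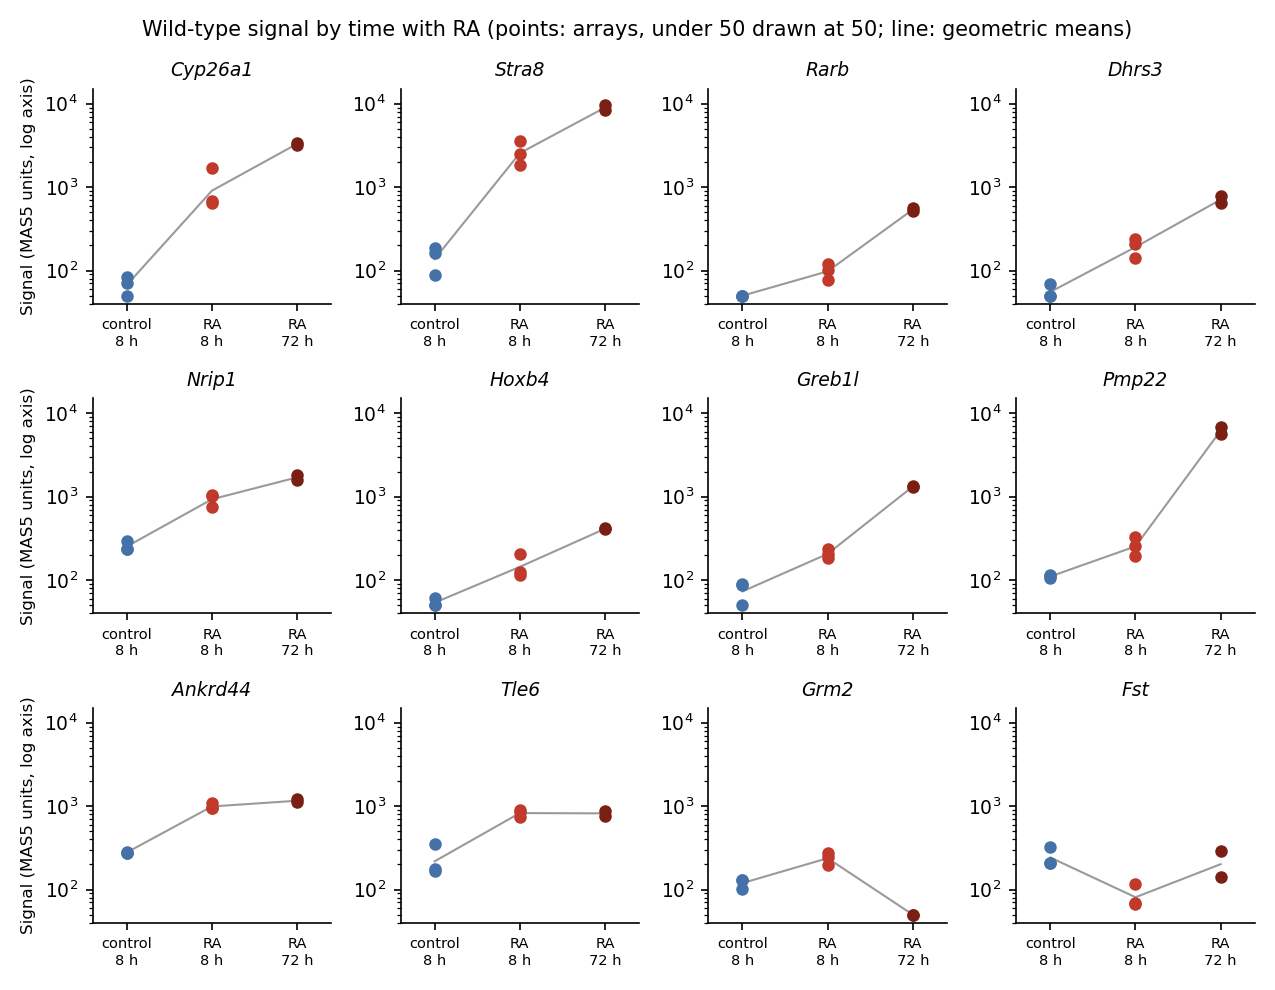
Signal (log axis, MAS5 units) of 12 called genes on the wild-type control arrays at 8 h (n = 3), the RA arrays at 8 h (n = 3) and the RA arrays at 72 h (n = 2), with points for arrays and a line through the geometric means. Pmp22 climbs most after 8 h, to 5612 and 6810 units, while Grm2 ends below its controls and Ankrd44 and Tle6 stay near their 8 h level.

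The same contrast in the Cyp26a1 knockout cells compares other arrays, but both contrasts come from a single fit and share its estimate of the spread. It called 109 genes (0.957%), 98 of them higher (0.861%) and 11 lower (0.0966%). The LIF label of knockout control replicate 1, used as given, was not borne out by the signal either. Of the 90 genes that rose in wild type, 63 were called higher in the knockout and 87 had a difference above 0. Of the 13 that fell, 4 were called lower there (1700097N02Rik, Msrb2, Ndrg1 and Slc7a3) and 12 had a difference below 0. The difference between the genotypes' responses was tested as an interaction, and limma called 0 of 11388 genes (0.0%). The unadjusted p was under 0.05 for 211 genes, or 367 with the block, which also called 0.

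Of the 103 genes, 14 had an unadjusted p under 0.05 in that test, each with an adjusted p of 1, where 211 of the 11388 tested had one. The 103 were called from wild-type arrays that also enter this test. That selection favours small p-values and weaker differences in the knockout, so the 14 are given as values only. Cyp26a1 rose by 1.98 ± 0.29 in the knockout, a difference of -1.78 ± 0.41 from wild type (unadjusted p = 0.000569). The gene is the one disrupted in those cells, and where its probe set lies relative to the disruption is not given here. Nrip1 rose by 1.15 ± 0.17 in the knockout (-0.73 ± 0.24 against wild type, unadjusted p = 0.00728). Msx3, Kif16b and Hmga2 had differences of -0.33, -0.05 and 0.12 in the knockout against 1.17, 0.92 and -0.85 in wild type, with unadjusted p of 0.000295, 0.000497 and 0.000397. Msx3 was near or under the floor in the knockout, at 77.2, 78.6 and 42.6 units in controls and 18.0, 61.5 and 34.6 with RA. Hmga2 already differed without RA, at 502, 619 and 659 units in knockout controls against 1289, 1157 and 1205 in wild-type controls. Knockout differences above those of wild type were found for Adgra2 (at least 2.59 ± 0.17), Ltbp3 (2.44 ± 0.28) and Nr6a1 (1.19 ± 0.13), with unadjusted p of 0.0103, 0.0377 and 0.0245. None of these differences passed the adjustment, and an adjusted p that misses the threshold does not show that the responses were equal.

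**Figure D5:**
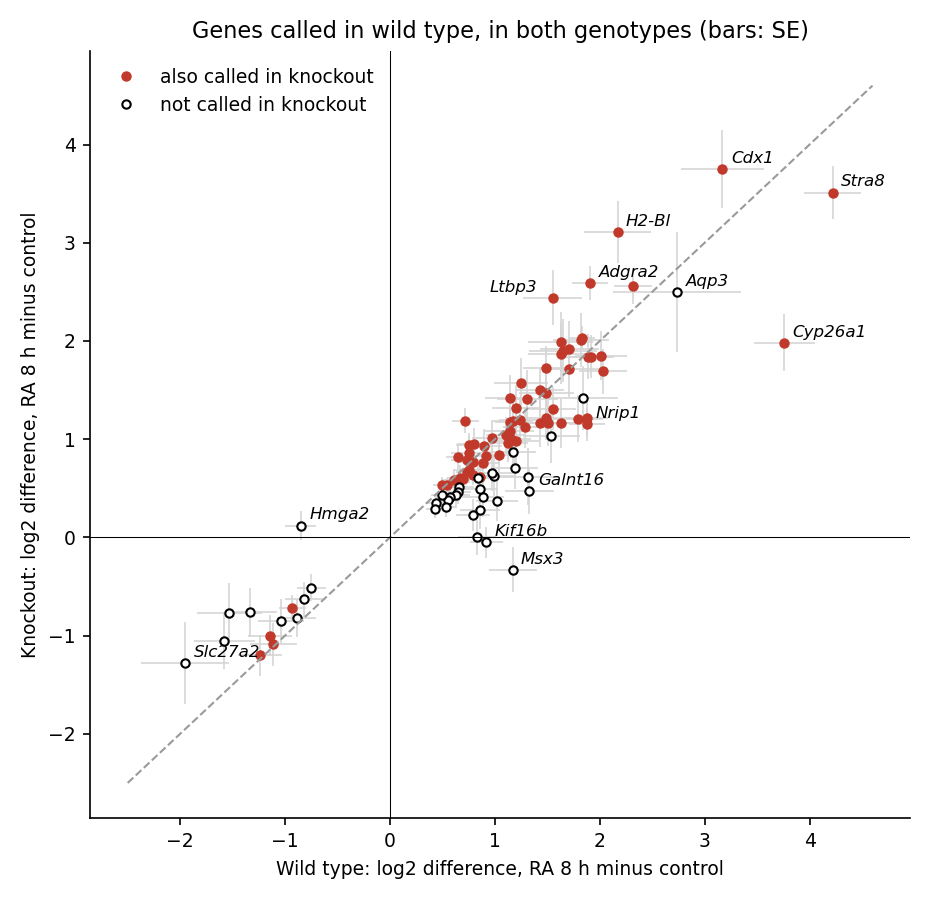
Each of the 103 genes called in wild type is placed by its log2 difference, RA 8 h minus control, in wild type (horizontal) and in the Cyp26a1 knockout (vertical), with bars for standard errors and a dashed line for equal values. Filled points (63 of the 90 higher and 4 of the 13 lower genes) were also called in the knockout. Cyp26a1, at 3.76 and 1.98, lies below the line, and Msx3 and Hmga2 lie on the other side of 0 in the knockout, where Msx3 was near or under the floor.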

How the data were processed

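Total RNA of 18 samples was hybridised to single-colour Affymetrix arrays, 1 per sample. The authors deposited linear signal intensity per probe set and array, made with MAS5 per the submitters' processing notes. The sources used here give no further settings. For the analysis, signals were brought to a common trimmed mean of 500 units per array (2% trimmed at each end), a floor of 50 was applied, and the values were log2 transformed. Of 45101 probe sets, 34958 had 1 gene symbol in the platform annotation, 932 had several and 9211 were not listed. RefSeq records of GRCm38.p6 matched 34754. The probe set with the highest mean log2 stood for its gene (18194 genes), and genes reaching 100 units on at least 2 arrays were tested (11388). The values carry no count depth, so the number of arrays limits precision. The median standard error was 0.19.

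Differences were fitted with limma 3.58.1 in R 4.3.3 (lmFit, eBayes with an intensity trend) on the 16 arrays of the 6 replicated groups, with 10 residual degrees of freedom, two-sided tests, Benjamini-Hochberg adjustment over all genes tested and a threshold of 0.05. The fit was tested on simulated data. Replicates were numbered 1 for titles with WtES, 2 for unnumbered Wt titles and 3 for rep3. Deviations of RA and control arrays with the same number correlated at 0.3595, 0.468 and 0.5043 in wild type and 0.1432, 0.271 and 0.2714 in the knockout. The numbers were therefore taken to pair the samples in the replicate block and in the folds by pair. The main fit, which gave the 103 calls and their standard errors, does not use this pairing. The alternatives were the replicate block, the number written in the title as block, other floors, filters, offsets and normalizations, leaving out arrays, and exchanged LIF labels. The members and lists were chosen with earlier results of these data known. The rule for values on every array named the 15 largest rises and 10 largest falls among called genes with groups that do not overlap. It added called members of each list, or the 2 largest differences where none was called, and the 5 genes just outside the threshold. Some genes that the rule selects are not described.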

Additional observations from a re-analysis of the deposited data

How the results depend on the processing

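The called genes kept their direction under each of the 19 settings run, except Fut4, which was at 0.0 with a floor of 100 units, as was its knockout minus wild-type response. Against 103 called genes (90 higher, 13 lower), the replicate block gave 275 (211 and 64), a block by the number written in the title 174 (135 and 39), no filter on dim genes 67 (60 and 7), a fit of the 6 arrays alone 13 (13 and 0), exchanged LIF labels 160 (128 and 32), and block and exchange together 376 (260 and 116), this last chosen after seeing the data. A floor of 100 units gave 23 lower genes. It moved 14 called genes by over 1.5 times, as did the mean over probe sets for 14, to as little as 0.02 for Tle2 and 0.26 for Wdr91. Leaving out 1 array in turn gave 58 to 135 genes, 50 to 104 higher and 5 to 31 lower: without RA replicate 1, 2 or 3 there were 67, 73 and 58, and without control replicate 1, 2 or 3 there were 73, 72 and 135. Other filters, offsets, quantile normalization, no trend and the mean over probe sets gave 85 to 111. The block changed the knockout's count from 109 to 342. The interaction called 2 genes without the filter. Leaving out a 72 h array changed the 2540 genes between 8 h and 72 h to 1336 or 1185, and leaving out an 8 h RA array to between 2100 and 2154. Signs of uncalled genes turned for Socs3 (-0.33 without control replicate 1 or without that replicate of both genotypes, -0.29 with exchanged LIF labels, with and without the block), Junb (-0.18 and -0.03 under the same settings) and Stra6 (-0.04 without RA replicate 1). Leaving out 1 array gave -0.33 to 1.48 for Socs3, -0.18 to 1.69 for Junb and -0.04 to 0.70 for Stra6. The cause of these shifts was not tested. Genes near the floor of 50 units are limited by signal over background, and their folds are understated.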

Other observations

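The replicate block called a further 172 genes, 121 of them higher, and 140 had groups that did not overlap, where 6.13% of all genes tested lay wholly above and 4.11% wholly below. Some of the 10 with the largest difference in each direction are given as values, picked after their values were seen. Notch4, a Notch receptor of blood vessels, read 224, 166 and 215 units in controls and 753, 407 and 516 with RA (1.44 ± 0.22, limma adjusted p = 0.00195 with the block and 0.0758 without). Erf, an ETS repressor downstream of ERK, read 1429, 1997 and 2962 units in controls and 4705, 4295 and 5415 with RA (1.23 ± 0.22, adjusted p = 0.00532 with the block and 0.0575 without). The controls of Erf spread widely, and each RA array was above every control. With the LIF labels exchanged and no block, Erf was called (adjusted p = 0.00398) and Notch4 was not (0.123).

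Igsf21, a synaptic adhesion gene (1.47 ± 0.32), Bhlha15, a transcription factor of secretory cells (1.42 ± 0.34), the myosin gene Myo1f (1.29 ± 0.21), Hal, which degrades histidine (1.28 ± 0.28), and the chloride channel gene Ano1 (1.26 ± 0.31) were also called higher with the block and not in the main fit. Their adjusted p with the block ran from 0.00302 for Myo1f to 0.0436 for Ano1. With the LIF labels exchanged and no block, Igsf21 (adjusted p = 0.0175), Bhlha15 (0.00582), Myo1f (0.0306) and Hal (0.0392) were called, and Ano1 was not (0.193). Sox11, a transcription factor of neural progenitors, read 348, 210 and 522 units in controls and 62.9, 94.3 and 188 with RA (-1.70 ± 0.39, adjusted p = 0.0334 with the block and 0.160 without). Mcc read 304, 215 and 114 units in controls and 82.5, 61.0 and 71.6 with RA (-1.46 ± 0.25, adjusted p = 0.00413 with the block and 0.0579 without). Podxl, a sialomucin of the ES cell surface, read 513, 651 and 479 units in controls and 189, 373 and 209 with RA (-1.15 ± 0.25, adjusted p = 0.0220 with the block and 0.0593 without). In each of these 3 genes every RA array was below every control. With the LIF labels exchanged and no block, Podxl was called (adjusted p = 0.0262), and Sox11 (0.26) and Mcc (0.0794) were not.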
